A study of Mus musculus with 1617 samples.

Results

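Microglia from 3 brain regions of 7-day-old mice (P7) were compared as single cells: hippocampus, thalamus and visual cortex. Each region was set against the other 2 over every gene of the table. Cells entered by their label for age and region and by a floor of 1000 genes at 1 TPM or more, which kept 98 of 110 labelled cells out of 1617 in the whole study: 28 of 34 from hippocampus, 42 of 44 from thalamus and 28 of 32 from visual cortex. The closest cells on either side of that floor had 1004 genes among those kept and 984 among those left out. The study sorted brain macrophages as single cells that carry CD45, F4/80 and CD11b and lack Ly6C, captured them on Fluidigm C1 chips, which lyse and reverse-transcribe each cell in its own chamber, and made Nextera XT libraries. For these P7 cells the descriptions name paired-end reads. The labels give the 3 groups no treatment, and they name no strain, genotype, sex, animal or litter. Each region was therefore 1 sample, so no difference below was tested, and every statement describes these cells and not the spread between animals. The cells of each region carry 1 unbroken run of title numbers, so the region and the preparation of its cells cannot be told apart.

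Microglia are the resident macrophages of the brain parenchyma. They descend from yolk sac progenitors, depend on signalling through the receptor encoded by Csf1r, and are shaped by TGF-beta. In the early postnatal brain they still divide, clear dying cells and excess synapses with the help of complement, and express genes for lysosomal digestion and lipid handling at high levels. Immediate early genes are transcription factors and feedback regulators that are switched on within minutes of a stimulus.

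Levels are TPM, the share of a cell's transcripts that a gene takes, a unit scaled by transcript length with a fixed total per cell, and means are over cells. A gene was measured where its mean reached 5 TPM in at least 1 region, which 9979 genes did. Ratios are log2 of a region's mean over the average of the other 2 regions' means, with 1 TPM added to each, which understates the differences of weakly expressed genes. A gene is called higher or lower in a region where its mean stood 1.5-fold or more above or below each of the other 2. Kept cells held 1004 to 4473 genes, with medians of 2582.5 in hippocampus, 2381.5 in thalamus and 2085.5 in visual cortex. Mitochondrially encoded genes took a median of 4.66%, 4.90% and 4.16% of the TPM, and more than 20% in 2, 6 and 1 cells. The number of reads per cell is unknown, and a 0 can be a transcript that was missed.

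The cells carried the markers of their label. All 18 listed genes of homeostatic microglia were measured, and a cell held a median of 16, 16 and 15 of them at 1 TPM or more in hippocampus, thalamus and visual cortex. P2ry12, the purinergic receptor that steers microglial processes, ranged from 412 to 21322 TPM in hippocampus (median 5159.7), from 3.3 to 18341 TPM in thalamus (median 6575) and from 375 to 23554 TPM in visual cortex (median 8013). Ptprc, which encodes CD45, reached 1 TPM in 22 of 28, 35 of 42 and 13 of 28 cells, and Ly6c1 and Ly6c2 were listed at 0 in every kept cell. Genes of neurons summed to at most 0.68 TPM in a cell and those of natural killer cells were listed at 0. S100a8 and S100a9 of neutrophils were listed at 0, and the whole neutrophil list summed to at most 80.6 TPM. Other lists reached higher sums in single cells. The highest sums were 2591 TPM for astrocytes, 1601 for endothelial cells, 711 for the oligodendrocyte lineage and 903 for T cells. B cell genes reached 7857 TPM, with medians of 230.9, 279.0 and 1343.9 TPM per cell. Of the female transcript Xist, 1 TPM or more was present in 24, 37 and 20 cells, while the Y-linked Ddx3y and Eif2s3y did not reach 1 TPM in any kept cell. Of other Y-linked genes, Kdm5d was present in 10, 15 and 10 cells, at up to 10.7 TPM, and Uty in 3 cells of each region, at up to 5.77 TPM.

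Over all measured genes, 2371 (23.8%) were higher and 1620 (16.2%) lower in hippocampus, 2385 (23.9%) were higher and 1488 (14.9%) lower in thalamus, and 2067 (20.7%) were higher and 2961 (29.7%) lower in visual cortex. The median ratio over all of them was -0.14, -0.16 and -0.72, so over all measured genes visual cortex starts from a lower background. With the 3 region means rescaled by median ratios these medians became -0.31, -0.29 and -0.43, with 2528 genes higher and 2598 lower in visual cortex. A single cell can carry a mean: called on mean log2(TPM + 1), which weighs cells more evenly, 11.2% were higher and 2.15% lower in hippocampus, 6.19% and 4.16% in thalamus, and 3.79% and 10.9% in visual cortex. Among the 454 genes at 1 TPM or more in 75% of all kept cells, a set chosen after the data were seen, 26 (5.73%) were higher and 13 (2.86%) lower in hippocampus, 36 (7.93%) and 24 (5.29%) in thalamus, and 63 (13.9%) and 87 (19.2%) in visual cortex. The median ratio over these 454 genes was -0.007, -0.067 and 0.014, so the lower background of visual cortex did not hold for widely detected genes. The all-gene medians set beside the lists below cover all measured genes, most of them less widely detected. All 87 of the genes lower in visual cortex were also lower as a mean of log2(TPM + 1), and 77 of them by 1.5-fold. The genes named below are members of the lists, genes picked by the ranking rule, or widely detected genes picked after their values were seen.

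Visual cortex differed from both other regions in abundant microglial genes. Fcrls, an Fc receptor-like scavenger receptor typical of microglia (chromosome 3, 87250758 to 87263738, minus strand, on GRCm38 with GENCODE M21 gene models, as for all gene positions here), ranged from 17.1 to 10554 TPM in hippocampus (median 3527), from 6.49 to 14418 TPM in thalamus (median 6433) and from 122.3 to 29358 TPM in visual cortex (median 12369). The median cell of visual cortex lay above the highest hippocampal cell, and the mean of 11964 TPM compared with 4264 and 6226 TPM (ratio 1.19). Csf1r, the receptor for the survival factors CSF1 and IL-34, went the other way and ranged from 37.1 to 9180.3 TPM in hippocampus (median 2334), from 31.9 to 6856 TPM in thalamus (median 1869) and from 2.02 to 4704 TPM in visual cortex (median 949.7). Its mean was 2678 TPM in hippocampus, 2469.5 in thalamus and 1231 in visual cortex (ratio -1.06), and the cells of the 3 regions overlapped. Of the 18 genes 1 was higher and 2 were lower in visual cortex, Csf1r among the latter, where 20.7% of all measured genes were higher and 29.7% lower, and their median was 0.09. In thalamus 1 was higher, Selplg, a ligand of selectins (269.2, 551 and 327 TPM in hippocampus, thalamus and visual cortex), and 1 lower, Ltc4s, which makes leukotriene C4 (1276, 711 and 1500.0 TPM). In hippocampus 0 were higher and 1 was lower, Crybb1, a crystallin gene of immature microglia (262.03, 634 and 476 TPM), and the medians were 0.14 in thalamus and -0.11 in hippocampus.

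**Figure D1:**
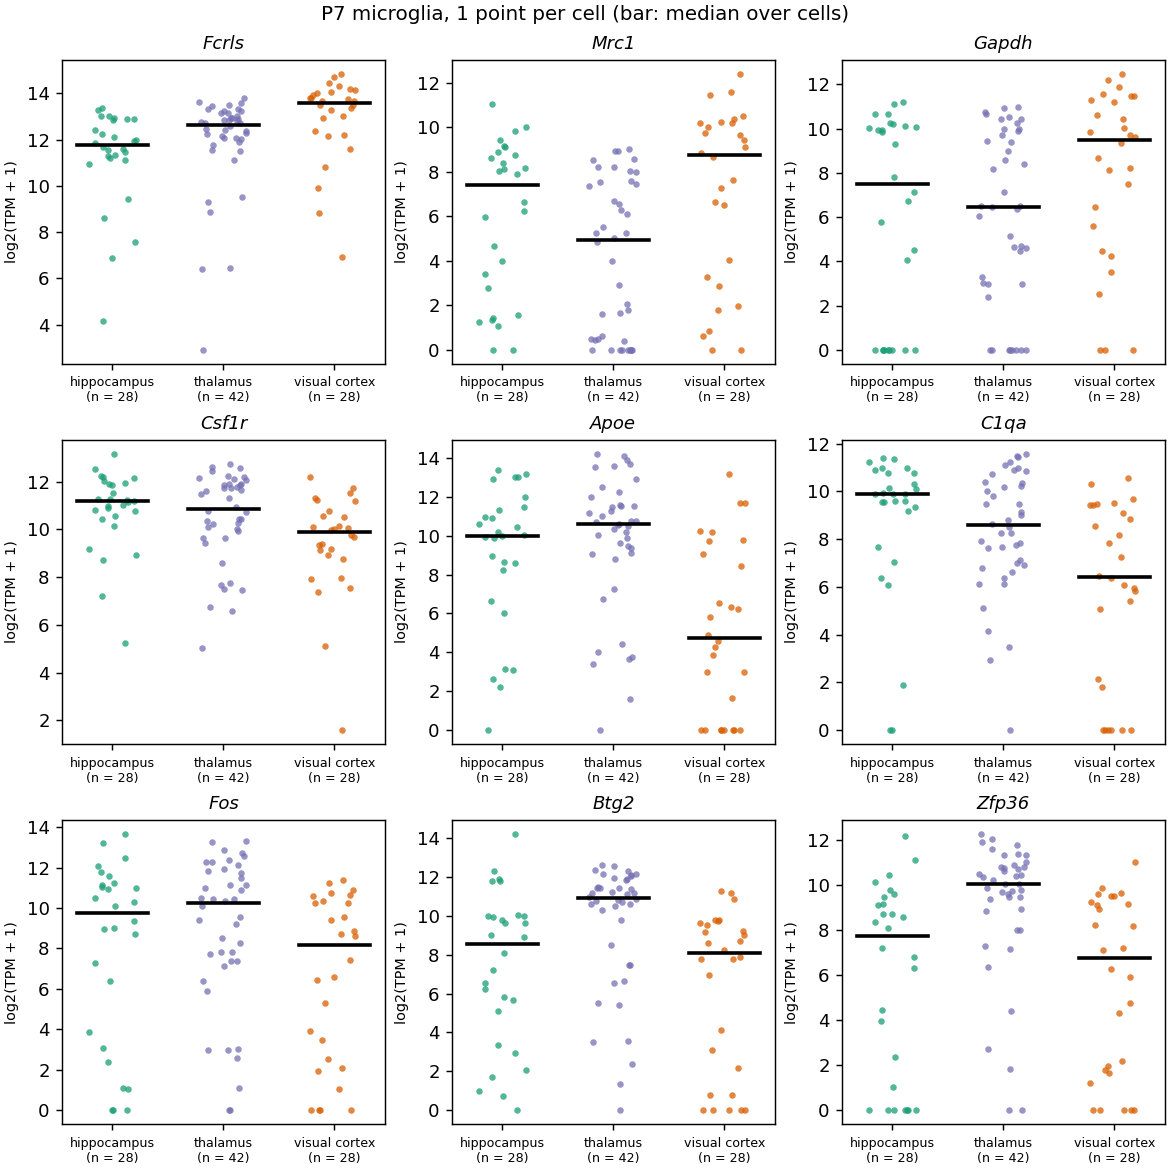
Expression of 9 genes in single P7 microglia as log2(TPM + 1), with 1 point per kept cell of hippocampus (n = 28), thalamus (n = 42) and visual cortex (n = 28) and a bar at the median. Fcrls, Mrc1 and Gapdh have their highest median in visual cortex, Csf1r, Apoe and C1qa their lowest, and Btg2 and Zfp36 have their highest median in thalamus. Single cells of the regions overlap for every gene, although for Fcrls the median visual cortex cell lies above the highest hippocampal cell.

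Of 27 lysosomal genes 7 were higher and 4 lower in visual cortex, with a median of 0.26. Of all measured genes 20.7% were higher there, 29.7% lower and the median was -0.72. As a difference of mean log2 values the list median was -0.40, against -0.18 over all measured genes. Without the highest cell of each region for each gene it was -0.07, against -0.66. The list as a whole thus had no direction that held on each measure. Higher were the proteases Ctsl (1377 TPM in hippocampus, 1538 in thalamus and 3070.4 in visual cortex, ratio 1.07) and Ctsb (2756, 2354 and 4343 TPM in the same order, ratio 0.77), and Lamp2, a lysosomal membrane protein (637, 718 and 1226 TPM, ratio 0.85), with Mertk, Itgav, Cd36 and Scarb2. Among the 4 lower genes were Hexa, a hexosaminidase subunit (1084, 921 and 300.3 TPM, ratio -1.74), the asparaginyl protease Lgmn (5770.5, 5780.4 and 3502 TPM, ratio -0.72) and Psap, the precursor of the saposins (151.7, 196.1 and 87.6 TPM, ratio -0.98). For Ctsl the medians followed the means: it ranged from 2.68 to 5584 TPM in hippocampus (median 1225), from 0 to 8684 TPM in thalamus (median 1239) and from 1.07 to 9439 TPM in visual cortex (median 3095). The same list had 2 higher and 4 lower in hippocampus (median -0.21) and 0 higher and 2 lower in thalamus (median -0.13).

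The genes of C1q, the complement protein that tags material for engulfment, were lower in visual cortex. C1qa, C1qb and C1qc encode its chains and lie side by side on chromosome 4, from 136880129 for C1qb to 136898803 for C1qa on the minus strand. C1qa ranged from 0 to 2672 TPM in hippocampus (median 944), from 0 to 3024 TPM in thalamus (median 379.6) and from 0 to 1523 TPM in visual cortex (median 84.1), and its mean was 1039, 803 and 316 TPM (ratio -1.54). C1qc averaged 1433, 1277 and 672 TPM (ratio -1.01) and C1qb 7396, 7151 and 4581 TPM (ratio -0.67). All 3 shared the direction, while the single cells overlapped widely. Of 10 measured complement genes 5 were lower in visual cortex, with the receptors C5ar1 and C5ar2 as the remaining ones, and 1 was higher, Itgb2, the integrin chain of complement receptor 3 (199.9, 215.95 and 326 TPM). Of all measured genes 29.7% were lower and 20.7% higher there. As a ratio of means the list median was -0.42 in visual cortex, above the all-gene -0.72. It was 0.26 in hippocampus and 0.25 in thalamus, against all-gene medians of -0.14 and -0.16. As a difference of mean log2 values the visual cortex median was -0.56, below the all-gene -0.18. With median-ratio rescaling 3 of the 10 were still lower, and C1qb was not among them.

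Single genes of lipid and iron handling and of antigen presentation were lower in visual cortex as well. Apoe, which encodes the lipid carrier apolipoprotein E (chromosome 7, 19696109 to 19699188, minus strand), ranged from 0 to 10716 TPM in hippocampus (median 1028), from 0 to 18852 TPM in thalamus (median 1527) and from 0 to 9139 TPM in visual cortex (median 25.5). Its mean was 2425 TPM in hippocampus, 3521 in thalamus and 749.6 in visual cortex (ratio -1.99, and -2.58 without the highest cell of each region), and it reached 1 TPM in 27 of 28, 41 of 42 and 20 of 28 cells. The visual cortex median lay far below both other medians, and 1 visual cortex cell held 43.5% of the region's Apoe. Trem2, the lipid-sensing receptor of phagocytic microglia, averaged 1251, 1224 and 662 TPM (ratio -0.90). Fth1, the heavy chain of the iron store ferritin, averaged 1836, 2185 and 721 TPM (ratio -1.48), and H2-D1, a classical MHC class I gene, 899.6, 998 and 231.7 TPM (ratio -2.03). Values of H2-D1 are uncertain, since MHC class I genes share near-identical sequence. The MHC class I list had 3 of its 12 genes higher and 3 lower in visual cortex (median -0.07, and -0.29 on mean log2 values). The list of lipid genes had 7 of 17 higher and 7 lower (median -1.03, and -0.02 on mean log2 values). Of all measured genes 20.7% were higher and 29.7% lower in visual cortex (median -0.72, and -0.18 on mean log2 values).

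Immediate early genes as a list ordered the regions, with thalamus above hippocampus and hippocampus above visual cortex. Of 19 measured members 12 were lower and 0 higher in visual cortex (median -1.76), 7 were higher and 1 lower in thalamus (median 1.09), and 1 was higher and 2 were lower in hippocampus (median 0.13). Over all measured genes 29.7% were lower in visual cortex, 23.9% higher in thalamus and 23.8% higher in hippocampus, with medians of -0.72, -0.16 and -0.14. As differences of mean log2 values the medians were -1.31, 1.63 and -0.12 for the same regions. Egr3 and Nr4a2 of the 21 listed genes were listed at 0. Fos, a subunit of the AP-1 transcription factor (chromosome 12, 85473890 to 85477273, plus strand), ranged from 0 to 12991 TPM in hippocampus (median 876), from 0 to 10046 TPM in thalamus (median 1202) and from 0 to 2683 TPM in visual cortex (median 285); the mean was 2007, 2211 and 670.0 TPM and the ratio -1.65 in visual cortex. Btg2, an antiproliferative gene (chromosome 1, 134075170 to 134079120, minus strand), ranged from 0 to 19007 TPM in hippocampus (median 378), from 0 to 6217 TPM in thalamus (median 1931) and from 0 to 2465 TPM in visual cortex (median 270.3), with means of 1545, 2188 and 515 TPM and ratios of 1.09 in thalamus and -1.86 in visual cortex. Zfp36, which encodes tristetraprolin, a protein that destabilises cytokine transcripts (chromosome 7, 28376784 to 28380253, minus strand), ranged from 0 to 4728 TPM in hippocampus (median 211.3), from 0 to 4956 TPM in thalamus (median 1056) and from 0 to 2083 TPM in visual cortex (median 106.98). Its mean was 543 TPM in hippocampus, 1365 in thalamus and 333 in visual cortex, a ratio of 1.64 for thalamus, and it reached 1 TPM in 21 of 28, 40 of 42 and 23 of 28 cells. For all 3 genes thalamus had the highest median and visual cortex the lowest, and the lowest cell of each region was listed at 0.

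Junb, Atf3 and Jun followed the same order, while Egr1, Egr2, Ier5, Klf4, Dusp1 and Rhob did not. Junb, an AP-1 subunit, averaged 131.7, 354 and 19.8 TPM and was seen in 14 of 28, 32 of 42 and 4 of 28 cells, with 98.4% of the visual cortex amount in 1 cell. Atf3, a stress-induced repressor, averaged 682, 1007 and 181.5 TPM (ratio -2.21 in visual cortex) and Jun 235.7, 320.0 and 111.3 TPM (ratio -1.31). Egr1, the most abundant member, was not low in visual cortex: it averaged 2390.2 TPM in hippocampus, 3809 in thalamus and 4187 in visual cortex and was lowest in hippocampus (ratio -0.74). Dusp1, a phosphatase that ends MAP kinase signals, averaged 474, 439.8 and 405 TPM and was called in no region, although its medians were 385, 100.5 and 1.2 TPM. Ier5 was lower in thalamus (97.4, 17.9 and 94.6 TPM). Summed over the list, a cell held a median of 6272 TPM in hippocampus, 11670 in thalamus and 6554 in visual cortex, so that the sum, in which Egr1 has the highest mean, set thalamus apart and not visual cortex.

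The promoters of Fos and Btg2 are shown because these are widely detected members that were lower in visual cortex. The pair was chosen after the values were seen. Each line gives the 250 bases before the RefSeq start site on GRCm38.p6, read along the gene; capitals mark a cAMP response element, TGACGTCA, where one was found on either strand.
Fos (chr12:85473640-85473889, plus strand): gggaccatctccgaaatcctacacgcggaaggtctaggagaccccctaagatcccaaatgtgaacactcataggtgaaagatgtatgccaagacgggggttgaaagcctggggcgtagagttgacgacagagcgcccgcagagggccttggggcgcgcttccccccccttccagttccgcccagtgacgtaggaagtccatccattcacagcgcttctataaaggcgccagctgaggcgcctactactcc
Btg2 (chr1:134079156-134079405, minus strand): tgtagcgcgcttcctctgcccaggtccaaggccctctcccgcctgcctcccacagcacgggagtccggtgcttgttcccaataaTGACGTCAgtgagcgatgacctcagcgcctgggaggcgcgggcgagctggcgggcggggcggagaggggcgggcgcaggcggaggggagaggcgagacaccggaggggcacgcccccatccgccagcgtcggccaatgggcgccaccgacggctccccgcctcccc
In Btg2 a cAMP response element lies in the distal part of the window, and Fos holds no exact TGACGTCA in this window. For this element only the exact letters were searched, so variants of it were not counted in Fos or in any other gene. Of the 19 measured members 17 had a promoter in the table, and Egr1 and Ier2 did not. The windows searched were 300 bases long, 50 of them after the start. The cAMP response element was found for 2 of the 17 (Btg2 and Dusp1) against 2.03% of 27025 genes, the serum response CArG box for 2 (Egr2 and Zfp36) against 1.81%, and the AP-1 site TGANTCA for 0 against 8.97%. Genes with several start sites were counted once, with the motif in any of them. Dusp1, with the same element as Btg2, was called in no region.

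**Figure D2:**
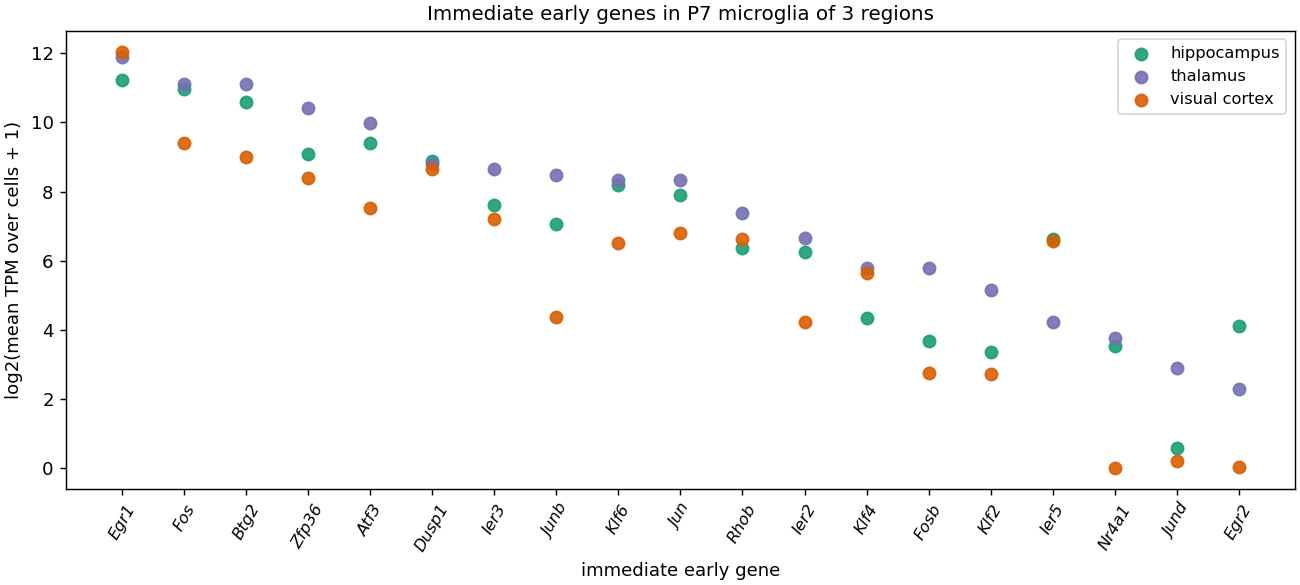
Mean expression of the 19 measured immediate early genes as log2(mean TPM + 1), ordered by their thalamic mean, with 1 point per region. Visual cortex lies below both other regions for most genes, among them Fos, Btg2, Atf3 and Junb; the exceptions are Egr1, Klf4, Rhob and Ier5.

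Single regulators of inflammatory signalling were higher in thalamus. Of 16 measured genes of cytokines and the NF-kB pathway 5 were higher and 0 lower there (median 0.55), against 3 higher and 6 lower in visual cortex (median -0.58) and 1 higher and 3 lower in hippocampus (median -0.60). Over all measured genes 23.9% were higher and 14.9% lower in thalamus at a median of -0.16. As a ratio of means the visual cortex median of the list lay above the all-gene -0.72. As a difference of mean log2 values it lay below, at -0.41 against -0.18. Without the highest cell of each region for each gene it was -1.46, against -0.66. Il1a, interleukin 1 alpha, averaged 32.5, 90.1 and 0.324 TPM and was seen in 8 of 28, 12 of 42 and 2 of 28 cells. Cd83, an activation marker, averaged 70.9, 247.4 and 44.7 TPM and was seen in 12 of 28, 19 of 42 and 7 of 28 cells. Nfkbia, the inhibitor that NF-kB induces to limit itself, was lower in visual cortex (799.5, 703 and 346 TPM, ratio -1.12). Il1a was seen in the same share of hippocampal and thalamic cells. Il1a and Cd83 rest on fewer than 1 in 2 cells, whereas Nfkbia was seen in 22 of 28, 32 of 42 and 15 of 28 cells. Chemokine genes were mixed. Ccl4, an inflammatory chemokine, ranged from 0 to 37906 TPM in hippocampus (median 40.9), from 0 to 40099 TPM in thalamus (median 2011) and from 0 to 30417 TPM in visual cortex (median 139.2), averaged 4746, 5166 and 2251 TPM and was lower in visual cortex (ratio -1.14), while Ccl3 averaged 1470.1, 1859.9 and 1377 TPM and was called in no region.

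Other widely detected genes higher in thalamus were Ptp4a1, a phosphatase of growing cells (339.9, 671 and 264.96 TPM, ratio 1.15), Picalm, a clathrin adaptor (78.8, 188.6 and 63.9 TPM, ratio 1.39) and Ewsr1, an RNA-binding protein (95.6, 372 and 85.7 TPM, ratio 2.03). Mitochondrially encoded genes had 4 of 15 higher and 0 lower in thalamus (median 0.63). Of all measured genes 23.9% were higher and 14.9% lower there, at a median of -0.16. Among the 4 was mt-Nd2, a subunit of complex I (1739, 3082 and 889 TPM, ratio 1.23). Thalamus also held 6 of the 9 cells with more than 20% mitochondrial TPM, and without those 9 cells the mitochondrial list median was -0.02.

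Lower in thalamus were several surface and lipid mediator genes. Mrc1, the mannose receptor (chromosome 2, 14229392 to 14332057, plus strand), ranged from 0 to 2128 TPM in hippocampus (median 167.5), from 0 to 515 TPM in thalamus (median 29.5) and from 0 to 5361 TPM in visual cortex (median 434). Its mean was 316 TPM in hippocampus, 109.4 in thalamus and 815 in visual cortex, a ratio of -2.36 for thalamus and 1.93 for visual cortex. No thalamic cell exceeded 1000 TPM of Mrc1, which 2 hippocampal and 9 visual cortex cells did. Fcer1g, the signalling chain of Fc receptors, ranged from 20.7 to 9239 TPM in hippocampus (median 3828), from 0 to 5471 TPM in thalamus (median 1831) and from 123.8 to 12297 TPM in visual cortex (median 4480.2) and averaged 3534, 1964 and 5490.1 TPM (ratio -1.199 for thalamus and 0.998 for visual cortex). Ptgs1, the constitutive cyclooxygenase, averaged 1178, 469.7 and 945 TPM (ratio -1.17), and Cd9, a tetraspanin, 1166, 722 and 1277 TPM (ratio -0.76). Each of these 4 genes was seen in 28 or more of the 42 thalamic cells.

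Mrc1 also marks the border-associated macrophages of meninges, perivascular spaces and choroid plexus, so the other markers of those cells are given beside it. Of 14 listed genes 10 were measured: 4 were higher and 0 lower in hippocampus, 1 was higher and 5 were lower in thalamus, and 5 were higher and 1 was lower in visual cortex. Over all measured genes the shares higher and lower were 23.8% and 16.2%, 23.9% and 14.9%, and 20.7% and 29.7%. Their median difference of mean log2 values was 0.13, -0.27 and 0.21. Their sum ran from 4.65 to 13679 TPM per cell in hippocampus, from 8.39 to 5167 in thalamus and from 2.82 to 25260 in visual cortex. F13a1 averaged 11.6, 0 and 158.98 TPM and was seen in 1 of 28, 0 of 42 and 2 of 28 cells; Lyve1 was seen in 1 of 28, 0 of 42 and 1 of 28 cells, and Clec10a was listed at 0. Pf4 averaged 230.8, 0.206 and 409 TPM and was seen in 2 of 28, 1 of 42 and 2 of 28 cells. A cell was counted where 2 or more of F13a1, Lyve1, Cd163, Cbr2, Folr2, Ms4a7, Mrc1 and Pf4 reached 100 TPM. Such cells numbered 2 of 28 in hippocampus, 2 of 42 in thalamus and 1 of 28 in visual cortex. Stab1 and the other listed genes were not used for this count. Stab1 was seen in 22 of 28, 33 of 42 and 19 of 28 cells. It averaged 396.7, 446.3 and 911.6 TPM and was higher in visual cortex. Colec12 was seen in 24 of 28, 38 of 42 and 24 of 28 cells, at means of 20.4, 6.02 and 6.06 TPM. F13a1, Lyve1 and Pf4 thus sat in at most 2 cells of a region. Mrc1 was seen in 26 of 28, 28 of 42 and 24 of 28 cells, and Stab1 and Colec12 were widely detected as well.

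Hippocampus was the region with the fewest widely detected genes called. Ckb, the brain-type creatine kinase (chromosome 12, 111669361 to 111672338, minus strand), ranged from 0 to 5399 TPM in hippocampus (median 606), from 0 to 1959 TPM in thalamus (median 254.4) and from 0 to 2354 TPM in visual cortex (median 43), and its mean was 1035 TPM in hippocampus, 497 in thalamus and 344 in visual cortex (ratio 1.30). Tubb5, a beta tubulin, ranged from 7.03 to 3173 TPM in hippocampus (median 652), from 0 to 2419.7 TPM in thalamus (median 295) and from 0 to 2099.7 TPM in visual cortex (median 123.2) and averaged 918, 511 and 336 TPM (ratio 1.11). Both genes were highest in hippocampus and lowest in visual cortex, in mean and in median. Pfn1, the actin monomer binder profilin 1, averaged 699, 421 and 372 TPM (ratio 0.82) and Id2, an inhibitor of helix-loop-helix factors, 1725, 1089 and 768 TPM (ratio 0.89). H2-T23, a non-classical MHC class I gene, averaged 245.9, 52 and 89.5 TPM (ratio 1.78), although its medians were close at 6.63, 7.5 and 5 TPM. Lower in hippocampus beside Egr1 were Wnk1, a kinase that controls chloride transport (141.5, 496 and 991 TPM, ratio -2.39), and Macf1, which links actin and microtubules (138.3, 226.6 and 433 TPM, ratio -1.25). Skil, a repressor of TGF-beta signalling, averaged 77.1, 307 and 228.8 TPM (ratio -1.78), with a difference of mean log2 values of -0.14.

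Visual cortex was higher in single genes of the cytoskeleton, calcium signalling and glycolysis that most cells express. Tmsb4x, the actin-sequestering thymosin beta 4, ranged from 67.3 to 10822 TPM in hippocampus (median 5099), from 0 to 9856 TPM in thalamus (median 3766) and from 1026 to 33023 TPM in visual cortex (median 9059.6) and averaged 5200.1, 3863 and 9465 TPM (ratio 1.06). Calm2, a calmodulin gene, averaged 988, 834 and 2254 TPM (ratio 1.31). Gapdh, a glycolytic enzyme (chromosome 6, 125161715 to 125166467, minus strand), ranged from 0 to 2373 TPM in hippocampus (median 180.8), from 0 to 2036 TPM in thalamus (median 88.3) and from 0 to 5694 TPM in visual cortex (median 718) and averaged 628, 481 and 1298 TPM (ratio 1.22). Gapdh has many processed copies in the mouse genome, and no source used here says how the counting split such reads. The glycolysis list did not share its direction: of 12 measured 2 were higher and 3 lower in visual cortex (median -0.07), with the hexokinase gene Hk2 among the lower ones (598, 484 and 249.2 TPM). Coro1a, another actin regulator, was also lower (580.4, 388 and 104.2 TPM, ratio -2.20), and the cytoskeleton list had 3 of 18 higher and 5 lower (median -0.05). Of all measured genes 20.7% were higher and 29.7% lower in visual cortex, at a median of -0.72.

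Of 82 measured ribosomal protein genes 17 were higher and 8 lower in visual cortex, with a median of 0.47. The share higher was that of all measured genes (20.7%), while fewer were lower than the 29.7% of all genes and the all-gene median was -0.72. Rpl32 averaged 2010.2, 1421 and 3954 TPM (ratio 1.204) and Rpl38 235.3, 211.3 and 609.8 TPM (ratio 1.45), while Rpl13 averaged 911, 841 and 376 TPM (ratio -1.22). In thalamus 3 were higher and 6 lower (median -0.45), among the latter Rpl29 (692, 192.1 and 662 TPM) and Rps24 (800.4, 320.0 and 637 TPM), and hippocampus had 4 higher and 3 lower (median -0.09). With median-ratio rescaling 39 were higher in visual cortex and 4 lower. Ribosomal protein genes also have many processed copies, so single members are uncertain.

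**Figure D3:**
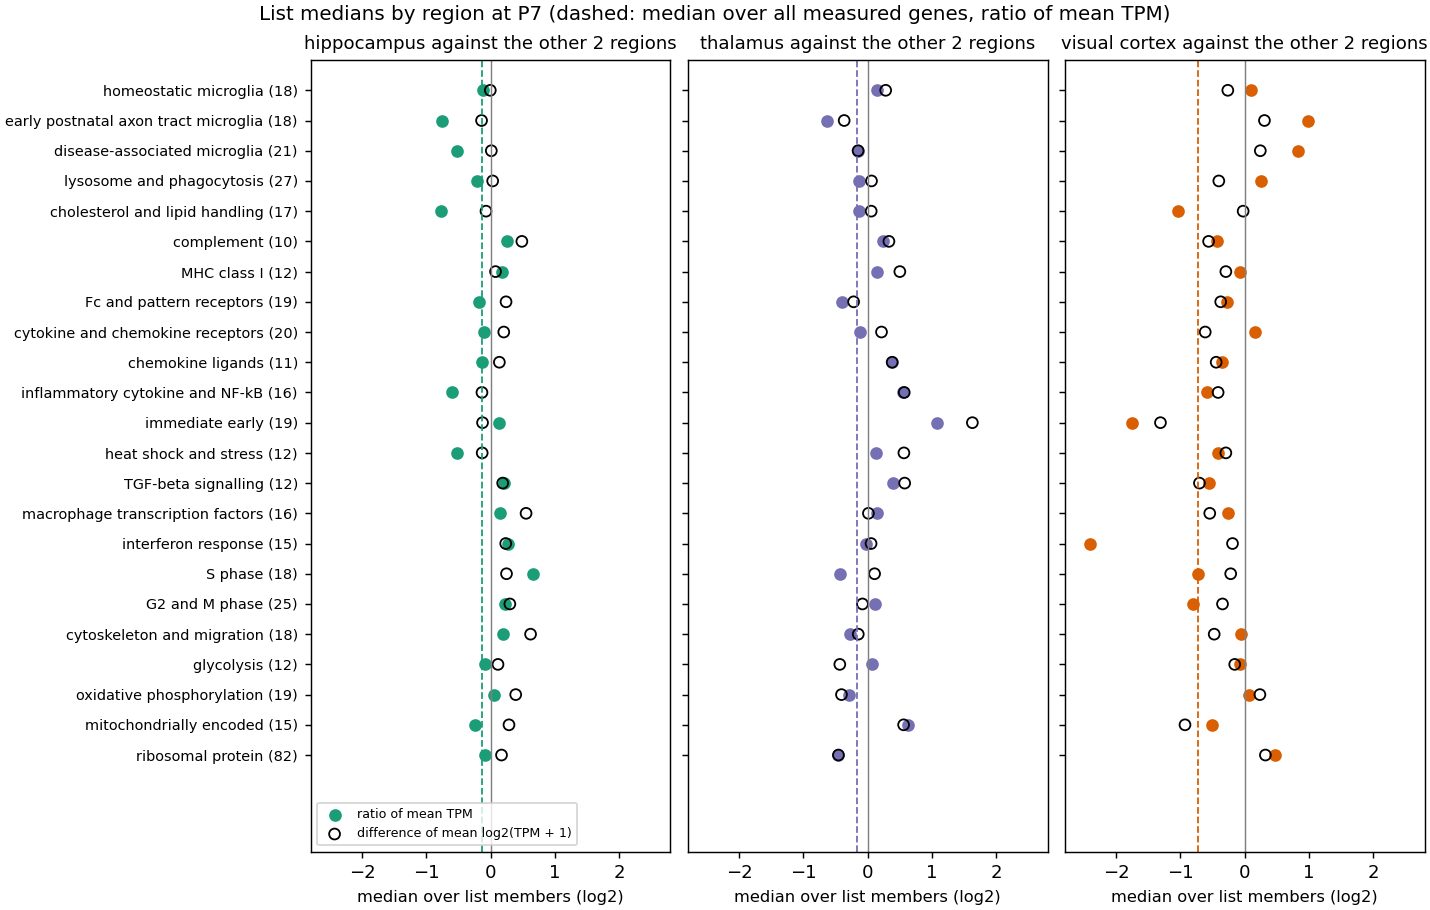
Median over the measured members of 23 gene lists (number in brackets) for each region against the other 2, as log2 ratio of mean TPM (filled) and as difference of mean log2(TPM + 1) (open), with a dashed line at the median over all 9979 measured genes. Immediate early genes lie at 1.09 in thalamus and -1.76 in visual cortex in filled points; the interferon list in visual cortex shows a large gap between filled and open points (-2.40 and -0.19).

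Genes of microglia that gather in early postnatal axon tracts leaned higher in visual cortex, with 10 of 18 measured genes higher, 1 lower (Apoe) and a median of 0.98, where 20.7% of all measured genes were higher, 29.7% lower and the median was -0.72. Much of this lay in few cells. Spp1, osteopontin, averaged 238.2 TPM in hippocampus, 36.3 in thalamus and 3903 in visual cortex, was seen in 6 of 28, 6 of 42 and 8 of 28 cells, and had 85.5% of its visual cortex amount in 1 cell. Itgax and Clec7a were seen in 1 and 2 visual cortex cells and were listed at 0 elsewhere. Igf1, insulin-like growth factor 1, averaged 40.9, 0.213 and 81.5 TPM in 4 of 28, 2 of 42 and 6 of 28 cells. Lpl, lipoprotein lipase, averaged 97.2, 102.6 and 229.4 TPM (ratio 1.19, or 0.40 without the highest cell of each region). Ctsb and Ctsl, described above, and Lpl, Cd9 and Apoe are among the members that most cells express. Over the list the difference of mean log2 values was 0.31, and without the highest cell for each gene 6 of 18 were higher. The highest visual cortex cell held 141367 TPM of the list in sum, against a median of 10974. Hippocampus had 1 higher and 2 lower (median -0.75), and thalamus 2 higher and 5 lower (median -0.63). In other cells of these regions at P14, visual cortex had 1 of 15 higher and 1 lower, and thalamus 5 higher and 0 lower. Of all genes measured at both ages, 13.4% were higher and 16.4% lower in visual cortex, and 13.3% and 9.18% in thalamus. In the adult, visual cortex had 1 of 16 higher and 5 lower, and thalamus 5 and 1. The shares of all such genes were 19.1% and 15.7%, and 21.9% and 12%.

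For the lists of TGF-beta signalling and macrophage transcription factors, the place against the background of visual cortex depended on the measure. Of all measured genes 29.7% were lower there, 20.7% higher and the median was -0.72. As ratios of means neither list median lay below that. As differences of mean log2 values both did, at -0.70 and -0.54 against -0.18. Without the highest cell of each region for each gene they were -1.10 and -0.32, against -0.66. Of 12 measured TGF-beta genes 5 were lower there and 0 higher (median -0.56). Tgfbr1, the type I receptor, averaged 202.5, 287 and 103.8 TPM and was seen in 25 of 28, 35 of 42 and 19 of 28 cells (ratio -1.23), while Ski, Smad2, Smad3 and Smad7 were seen in at most 8 visual cortex cells each. Of 16 transcription factors 7 were lower and 2 higher (median -0.26). Bhlhe41, a repressor active in resident macrophages, averaged 146.4, 156.9 and 36.4 TPM (ratio -2.03), and Mef2a, a factor of the microglial enhancer landscape, 217.6, 218.2 and 144.7 TPM (ratio -0.59). Sall1, the factor that maintains microglial identity, averaged 313, 257.7 and 346 TPM and was called in no region. Interferon response genes had a median of -2.40 in visual cortex with 6 of 15 lower and 3 higher, against the same background, but members rest on few cells: Bst2, which tethers virions, was seen in 5 of 28, 10 of 42 and 2 of 28 cells, and the difference of mean log2 values was -0.19.

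Cells with many mitotic transcripts were found in all 3 regions. Cells with 5 or more of 25 G2 and M phase genes at 10 TPM numbered 6 of 28 in hippocampus (21.4%, exact Clopper-Pearson 95% interval 8.30 to 40.95), 8 of 42 in thalamus (19.05%, 8.60 to 34.1) and 6 of 28 in visual cortex (21.4%, 8.30 to 40.95). The intervals cover counting error over cells only. Each share lay within the intervals of the others, and cells near the threshold, with 3 to 6 such genes, numbered 2, 4 and 3. G2 and M phase genes had 7 of 25 higher and 1 lower in hippocampus (median 0.22), 8 and 3 in thalamus (0.11), and 3 and 10 in visual cortex (-0.80, near the all-gene median of -0.72). Mki67, the proliferation antigen, averaged 72.1, 70.9 and 48.6 TPM and was seen in 10 of 28, 14 of 42 and 8 of 28 cells. Of 18 S phase genes 6 were higher and 2 lower in hippocampus (median 0.66), 2 and 4 in thalamus (-0.43), and 3 and 6 in visual cortex (-0.73, against -0.72 over all genes). Of all measured genes 23.8% were higher and 16.2% lower in hippocampus, and among cells with 2000 or more genes the hippocampal S phase median turned to -0.75. Mcm3, a subunit of the replicative helicase, averaged 259.4, 181.8 and 1.44 TPM and was seen in 8 of 28, 12 of 42 and 3 of 28 cells.

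**Figure D4:**
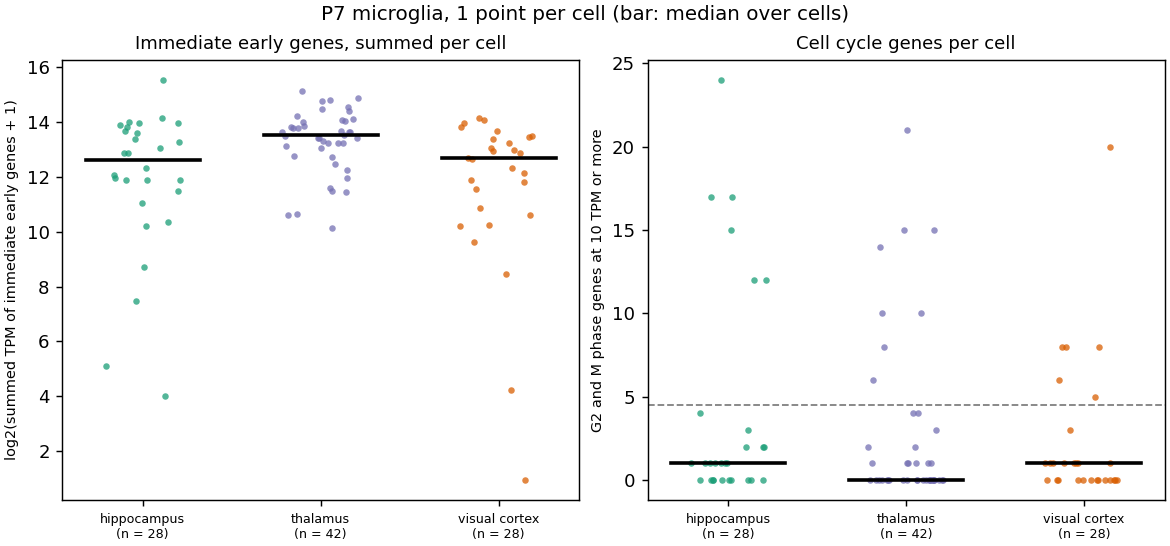
Left, summed TPM of the listed immediate early genes per cell as log2(sum + 1); right, number of the 25 G2 and M phase genes at 10 TPM or more per cell, with a dashed line below the threshold of 5 genes; 1 point per kept cell and a bar at the median. The thalamic median of the sum (11670 TPM) stands above those of hippocampus and visual cortex (6272 and 6554 TPM), and 6, 8 and 6 cells lie above the line.

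The genes with the largest regional ratios that passed the rule on level and share of cells were mostly seen in a minority of cells. In hippocampus Etv1, an ETS transcription factor, averaged 136.4, 0.92 and 21.9 TPM and was seen in 7 of 28, 3 of 42 and 1 of 28 cells, and Ube2c, a ubiquitin-conjugating enzyme of mitosis, 206.4, 6.77 and 6.86 TPM in 8 of 28, 4 of 42 and 3 of 28 cells. In thalamus Socs3, a feedback inhibitor of cytokine receptors, averaged 0, 65 and 0.739 TPM and was seen in 0 of 28, 14 of 42 and 1 of 28 cells; Tsc22d3, a glucocorticoid-induced gene, averaged 35.8, 223.4 and 57.6 TPM in 8 of 28, 19 of 42 and 8 of 28 cells. In visual cortex Birc2, an inhibitor of apoptosis, averaged 24.3, 45.8 and 456 TPM in 3 of 28, 11 of 42 and 11 of 28 cells, and Uba7, the activating enzyme for ISG15, 33.8, 27.3 and 410.4 TPM in 7 of 28, 6 of 42 and 15 of 28 cells. Ninj1, which drives membrane rupture in dying cells, averaged 163.97, 84.6 and 0 TPM and was listed at 0 in all 28 visual cortex cells. Lowest in hippocampus were genes such as Psmc5, a proteasome subunit (21.4, 199.3 and 308 TPM in 6 of 28, 16 of 42 and 7 of 28 cells), and in thalamus Psmd11, another one (170.4, 16.3 and 225.4 TPM in 9 of 28, 9 of 42 and 12 of 28 cells).

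The same regions were sampled in other cells at P14 and in the adult (63, 98 and 93 kept adult cells), with libraries not described as paired-end. Of genes higher in P7 hippocampus and measured at both ages, 14.7% were also higher in hippocampus at P14, against 11.3% of all such genes; for thalamus these shares were 15.7% and 13.3%, and for visual cortex 13.4% and 13.4%. For lower genes they were 15.9% and 14.5%, 9.12% and 9.18%, and 18.6% and 16.4%. In the adult they were 15.3% and 13.5%, 24.1% and 21.9%, and 20.6% and 19.1% for higher genes, and 31.4% and 29.3%, 14% and 12%, and 17.6% and 15.7% for lower ones. The share among P7 calls was thus close to the share among all genes at both ages. E18.5 gave 1 kept hippocampal cell, so the 3 regions were not compared at that age.

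**Figure D5:**
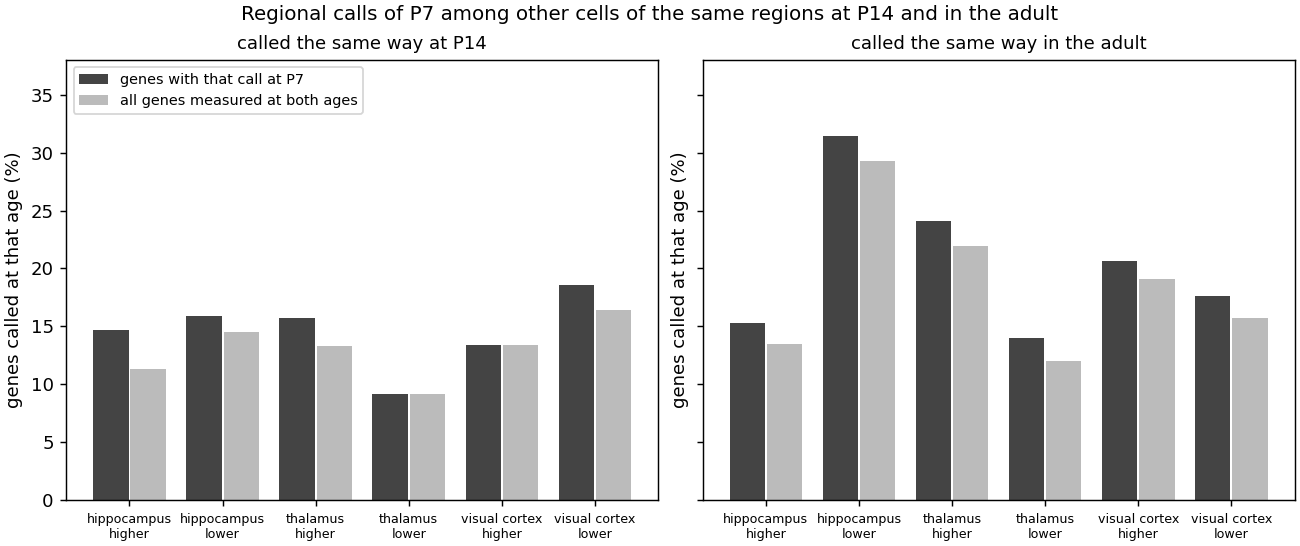
Share of genes called higher or lower in a region at P14 (left) and in the adult (right), among genes with the same call at P7 (dark bars) and among all genes measured at both ages (light bars), in percent. The dark bars stand close to the light ones, for example 14.7% and 11.3% for hippocampus higher at P14.

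Single genes differed in this respect. Apoe was also lowest in visual cortex at P14 (824, 1287 and 524 TPM in hippocampus, thalamus and visual cortex) and in the adult (158.2, 915 and 98.9 TPM), and it was called lower at both ages. Fcrls was highest in visual cortex at P14 (4396, 5549 and 6041 TPM), below 1.5-fold, and in the adult (3091, 2354 and 5391 TPM), where it was called higher. Csf1r was called in no region at P14 (2340.0, 1856 and 2123 TPM) or in the adult (777, 1527 and 1064 TPM). C1qa averaged 922, 825 and 665 TPM at P14 and was called in no region there. Fos averaged 3562, 3109 and 2360.5 TPM at P14 and 2358, 2729 and 3262 TPM in the adult, and Zfp36 averaged 1943, 1506 and 1939.7 TPM at P14, where thalamus was the lowest region. Of the 87 widely detected genes lower in visual cortex at P7, 5 were called lower at P14 (H2-D1, Apoe, Btg2, Ccl4 and Psap; 5.75% against 3.3% of all 454) and 7 in the adult (8.05% against 5.07%). Of the 63 higher there, 2 were called higher at P14 (3.17% against 4.19%) and 8 in the adult (12.7% against 10.1%), Fcrls among them. Of the 36 genes higher in thalamus 0 were called at P14 (against 1.54%) and 1 in the adult (2.78% against 9.47%), and of the 24 lower ones 1 was called at P14 (4.17% against 1.32%) and 1 in the adult (4.17% against 3.3%). Of the 26 genes higher in hippocampus 1 was called at P14 (3.85% against 2.42%) and 1 in the adult (3.85% against 1.98%), and of the 13 lower ones 1 was called at P14 (7.69% against 2.42%) and 3 in the adult (23.1% against 17.2%).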

How the data were processed

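Single microglia of hippocampus, thalamus and visual cortex at P7 were grouped by their labels. The authors deposited 1 table of TPM values for 1617 cells and 43280 genes. The submitters' processing notes list RSEM 1.2.19, Seurat and GRCm38, and no source used here states the aligner or annotation. The deposited TPM hold no read or molecule counts, so depth per cell is unknown, and without molecular identifiers amplification copies cannot be removed. Doublets were not removed, since the values are not counts.

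From these values, means, medians and ratios were computed with Python 3.11.15, numpy 2.4.6, pandas 2.3.3 and scipy 1.17.1, and drawn with matplotlib 3.10.9; the calling step was checked on simulated data. Kept cells had 1000 or more genes at 1 TPM. A pseudocount of 1 TPM and a level filter of 5 TPM were used. Each region is 1 sample, so no test was made. Genes were named by rule: a mean of 50 TPM in the highest region, 1 TPM in 25% of its cells, the same direction as mean log2 values and without the highest cell of each region, ranked by the smaller pairwise ratio, the first 8 in each direction. Mitochondrial, ribosomal protein, predicted, clone-named, pseudogene, Xist and Y-linked genes were not ranked. The genes with the largest contrasts in each list were named too. Promoters came from RefSeq on GRCm38.p6. The members and lists were chosen with earlier results of these data known. The alternatives changed the cells kept, the pseudocount, the level filter, the averaging and the scaling. Results on some genes are not reported here.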

Additional observations from a re-analysis of the deposited data

How the results depend on the processing

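No paired analysis was possible because the cells carry no number that ties the regions together and each region is 1 sample. Of 90 counts of called genes under the alternatives 72 stayed within 1.5 times the reported count, and 18 moved beyond it. As a share of measured genes called on differences of mean log2(TPM + 1), 11.2% were higher and 2.15% lower in hippocampus, 6.19% and 4.16% in thalamus, and 3.79% and 10.9% in visual cortex. Among the 454 genes at 1 TPM in 75% of all cells, fewer genes by construction, these shares were 5.73% and 2.86%, 7.93% and 5.29%, and 13.9% and 19.2%. A pseudocount of 10 TPM left 10.2% lower in hippocampus, 9.93% in thalamus and 19.7% in visual cortex. With a level filter of 20 TPM, 20.5% of the fewer measured genes (1478 of 7209) were higher in thalamus. Without the highest cell of each region for each gene 8.41% were lower in thalamus and 12% higher in visual cortex. Of 1011 list medians under the alternatives 3 reversed: among cells with 2000 or more genes the S phase median in hippocampus was -0.75 and the mitochondrial median in thalamus -0.073, and without cells above 20% mitochondrial TPM the latter was -0.021. Of 1153 gene values 7 reversed. Among cells with 2000 or more genes visual cortex ratios were -1.35 for Il1rl2, -0.12 for Tacc3, -0.44 for Emr1 and -0.44 for Slc1a3, and the hippocampal ratio of H2-DMa was -0.55. H2-DMa was also -0.033 without the highest cells and -1.03 without the cells high in mitochondrial TPM. Beyond the smaller sets of genes and cells, the cause was not tested. A value with no replicates was taken as moved beyond 1.5-fold. The mitochondrial limit and the widely detected genes were chosen after seeing the data.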
